A study of Homo sapiens with 18 samples.

Results

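The mitosis and G2/M genes are 50 genes that act when a cell leaves the G2 phase, builds a spindle, separates its chromosomes and divides. They were chosen by name from what they are known to do, with earlier results of these data known. Their Ensembl identifiers were matched to the rows of both deposited count tables. All 50 were found among the 60558 genes of the tables, and all 50 passed the filter on low counts in both. They were sorted here into roles, from the kinases and cyclins of mitotic entry to the proteins of cytokinesis, and their levels were followed across all 9 conditions of the series.

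Entry into mitosis is driven by CDK1 bound to its cyclins A and B, which CDC25 phosphatases switch on and PLK1 and Aurora A help to activate. The genes of this programme are transcribed late in the cycle, when B-MYB (encoded by MYBL2) and then FOXM1 act with the MuvB core at their promoters, and the same promoters are held silent by the DREAM complex in resting cells. Doxorubicin poisons topoisomerase II and breaks DNA, and many damaged cells are known to halt in G2 with mitotic kinases held inactive. ZMYND8 is a reader of histone marks that binds chromatin.

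MDA-MB-231, a human line of basal breast cancer cells, was profiled by sequencing of its poly(A) RNA in 18 libraries, 2 for each condition. In the transient experiment, cells transfected with empty vector or FLAG-ZMYND8 received vehicle or 0.6 µM doxorubicin from 24 h after transfection, and the 3 conditions were control, control with doxorubicin for 48 h, and FLAG-ZMYND8 with doxorubicin for 48 h. In the inducible experiment, cells carried a lentiviral pInducer20 construct for GFP or for ZMYND8, the protein was induced with 250 ng/mL doxycycline, and doxorubicin at 0.6 µM was added 4 h later for 6 or 48 h or not at all. Each construct was present in a single selected line, so construct and line cannot be told apart, and the harvest time of the untreated cells was not given, so the time of drug exposure and the time in culture cannot be told apart either.

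The depth was 5729294 to 5972396 counts per library in the transient experiment, except for 24713822 counts in the second doxorubicin library, and 18300628 to 23724398 counts in the inducible experiment. ZMYND8 itself was at 209 and 208 CPM (its count over the library total, on a scale that corrects for depth) in untreated GFP cells and at 921 and 927 CPM in untreated ZMYND8 cells. In the transient experiment it was at 219 and 199 CPM in control cells, 182 and 123 CPM with doxorubicin and 159.8 and 125 CPM in the libraries labelled FLAG-ZMYND8, which goes against that label. The second libraries of these latter 2 conditions also differed by a chi-square of only 1.39 per degree of freedom over 17815 genes, against 9.71 to 55.6 for the other 14 pairs of transient libraries. Genes that this line expresses strongly (VIM, CD44, CAV1, AXL and ANXA1) were at 334 to 4494 CPM in every library, and 7 markers of leukocytes, endothelium, fibroblasts, smooth muscle and other epithelium were at 0 to 44.5 CPM.

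Levels are given as CPM scaled with TMM factors within each experiment, and changes as log2 fold changes from edgeR's quasi-likelihood test. A gene rose or fell where the Benjamini-Hochberg adjusted p-value over all genes tested was at most 0.05. Per kilobase of exon, UBE2C, the ubiquitin-conjugating enzyme of the anaphase-promoting complex, had the highest level of the 50 in all 9 conditions, at 137 ± 7.84 FPKM (SD, n = 2) in untreated GFP cells. CCNB1, the mitotic cyclin B1, came next there at 88.0 ± 0.376 FPKM, and their ranges did not overlap. PRC1 and NUSAP1 stood at the bottom with 0.238 ± 0.0529 and 0.194 ± 0.0155 FPKM (SD, n = 2). Both lie mostly under another annotated gene on the same strand, which covers 57.6% of PRC1 exon bases and 81.4% of NUSAP1 exon bases, and reads that overlap several genes were not assigned, so their counts are what was left over. SPC25, a subunit of the NDC80 complex, was the only other member under 6 CPM in every library. All 3 are counted below, and PRC1 and NUSAP1 are left out of the plots.

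The summed level of the 50 genes was 5035 and 4905 CPM in untreated GFP cells, 4634 and 4632 CPM after 6 h and 6434 and 6374 CPM after 48 h of doxorubicin. Untreated ZMYND8 cells began higher, at 7058 and 7066 CPM, and held 5794 and 5825 CPM after 6 h and 6081 and 6061 CPM after 48 h. On this TMM scale the sum was lowest at 6 h in both lines. At 48 h it lay above the untreated level in GFP cells and below it in ZMYND8 cells. With total counts as the only scaling, the median of all genes at 48 h moved by 0.25 in GFP cells and 0.21 in ZMYND8 cells on the log2 scale. The lower sum of ZMYND8 cells at 48 h thus rests on the scaling. Transient control cells went from 4175 and 4736 CPM to 7712 and 6419 CPM with doxorubicin. In bulk RNA, fewer cells in a phase and less RNA per cell cannot be told apart.

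**Figure D1:**
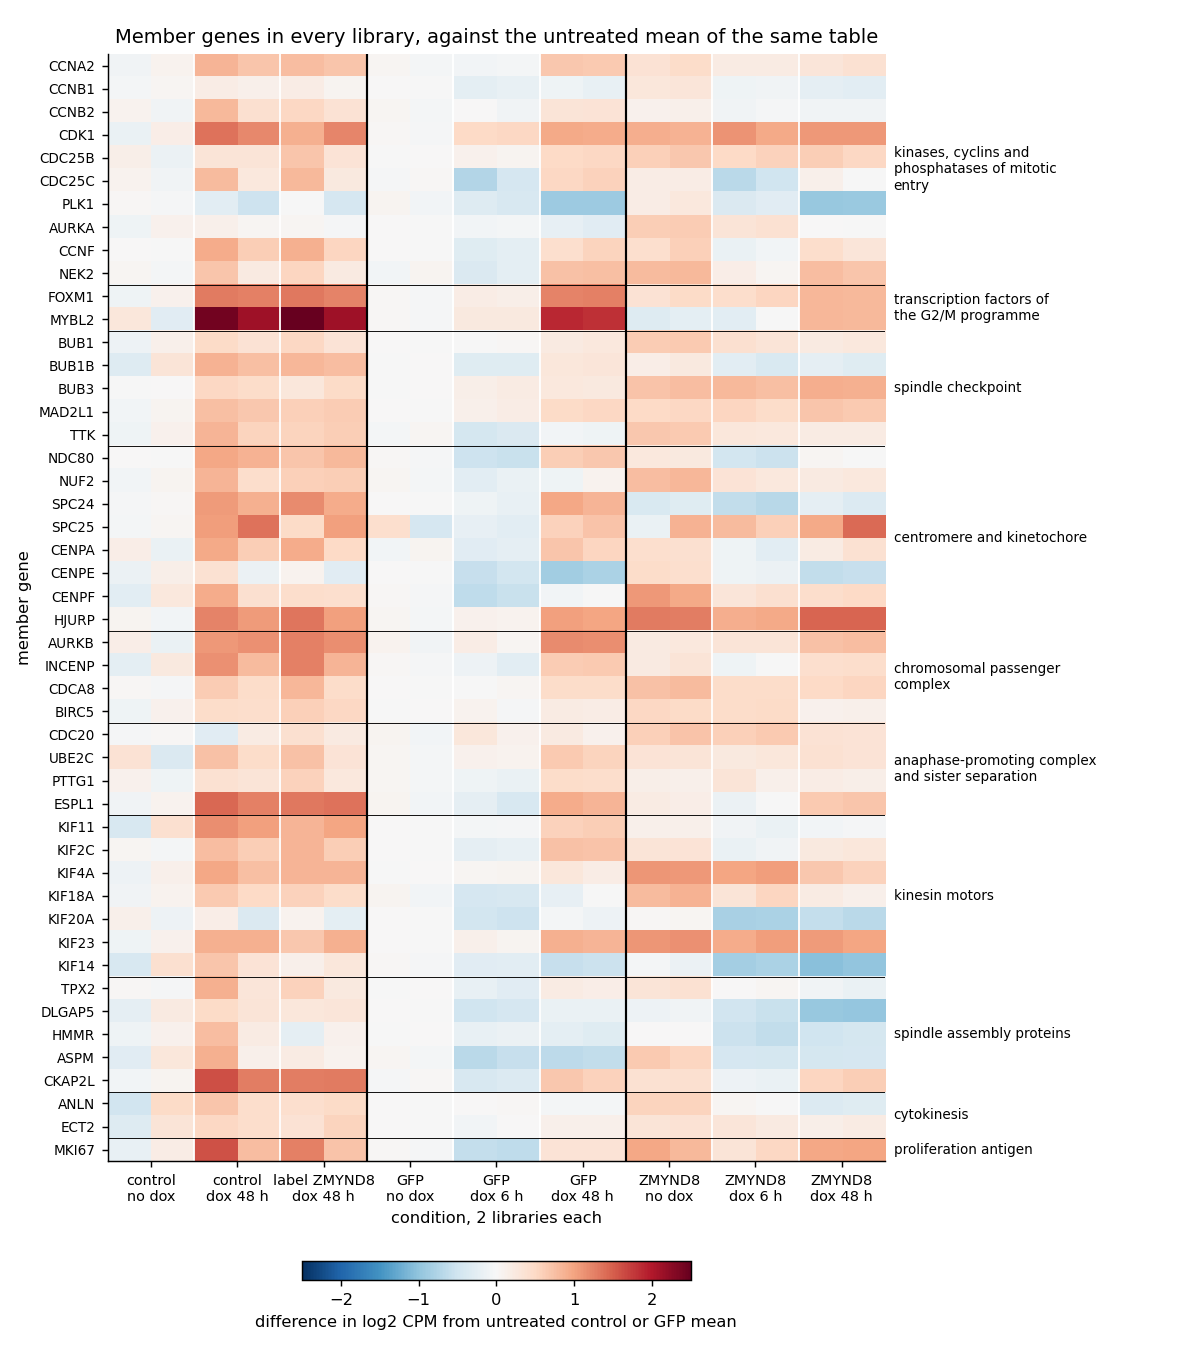
Difference in log2 CPM of 48 genes (rows, grouped by role) from the mean of the untreated control or GFP libraries of the same experiment, in 18 libraries (columns, 2 for each of 9 conditions). Red is higher and blue lower on the colour bar; MYBL2, FOXM1 and CDK1 are red after 48 h in control and GFP cells, PLK1 and CENPE are blue after 48 h in both inducible lines, and the ZMYND8 line is red for many genes before the drug.

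Upon 48 h of doxorubicin most of these genes were upregulated in GFP cells, while PLK1 and several spindle genes were downregulated. Of the 50 genes, 33 rose, 8 fell and 9 did not pass the test, with a median log2 fold change of 0.39, against 0.03 over 18799 genes tested, of which 64.2% were called, 32.4% upward and 31.8% downward. Both treated libraries lay above both untreated ones for 35 genes and below for 12, against 42.1% and 39.5% of all genes. With total counts as the only scaling, the median of all genes moved by 0.25, and 40 of the genes rose and 4 fell. Of all genes, 34.1% then rose in both GFP and ZMYND8 cells. Another 9.53% rose in GFP cells without passing in ZMYND8 cells, and 1.63% rose in GFP and fell in ZMYND8 cells. In both lines 14.8% fell, while 5.10% fell in GFP cells without passing in ZMYND8 cells and 1.33% fell in GFP and rose in ZMYND8 cells. The genes this line expresses strongly (VIM, CD44, CAV1, AXL and ANXA1) summed to 7699 and 7731 CPM without drug and to 4210 and 4124 CPM after 48 h. The mitochondrial share of the counts was 0.893% and 0.947% before and 1.66% and 1.70% after, and the part of either in the result was not tested.

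Both transcription factors of the programme rose. MYBL2 at chr20:43667019-43716495 (hg38, plus strand) was at 100.3 and 97.1 CPM without doxorubicin, 117 and 117 CPM after 6 h and 363 and 349 CPM after 48 h in GFP cells. The 48 h libraries stood far above all others, and the increase was 3.61-fold (log2 fold change 1.85, SE 0.052, edgeR adjusted p = 3.92e-21), the steepest of the 50 genes. FOXM1 at chr12:2857681-2877155 (minus strand) was at 116 and 110.4 CPM, 129 and 126 CPM and 268 and 271 CPM in the same order. Its levels did not overlap between any of the 3 times, and the log2 fold change at 48 h was 1.25 (SE 0.046, adjusted p = 1.14e-18).

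Of the 10 kinases, cyclins and phosphatases of mitotic entry, 7 rose and 3 fell after 48 h, with a median log2 fold change of 0.50. CDK1, the kinase that drives entry (chr10:60778331-60794852, plus strand), was at 169.6 and 161 CPM, 233 and 237 CPM and 317 and 313 CPM in GFP cells without drug, after 6 h and after 48 h. Each time point was separate from the others, and the log2 fold change was 0.93 at 48 h (SE 0.047, adjusted p = 1.15e-15). The kinase NEK2 (log2 fold change 0.74), cyclin A2 (0.66), the CDC25C phosphatase (0.55), CDC25B (0.51), cyclin F (0.49) and cyclin B2 (0.33) also rose.

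On the TMM scale, PLK1, AURKA and CCNB1 moved against the rest of the entry genes. PLK1, the polo-like kinase that activates the CDK1 and cyclin B complex (chr16:23677656-23690367, plus strand), was at 93.1 and 85.1 CPM, then 71.4 and 67.6 CPM at 6 h and 47.5 and 47.5 CPM at 48 h. It stepped down at each time without overlap, to a level 1.88-fold lower at 48 h (log2 fold change −0.91, SE 0.055, adjusted p = 5.26e-14), the largest fall of the 50 genes. AURKA, the Aurora kinase of the spindle poles, was at 151 and 148 CPM, 143 and 144 CPM and 129 and 123 CPM, a fall of smaller size (log2 fold change −0.25 at 48 h). With total counts as the only scaling, AURKA did not pass the test at 48 h. CCNB1 (chr5:69167135-69178245, plus strand) was at 215 and 213 CPM, 179.7 and 189 CPM and 198 and 188 CPM. Its treated libraries lay below its untreated ones (log2 fold change −0.15 at 48 h), but with total counts as the only scaling the 48 h value turned to 0.09 and still passed the test.

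Genes of the spindle checkpoint, which holds anaphase until chromosomes are attached, rose in 4 of 5 cases, with a median log2 fold change of 0.26. BUB1, a checkpoint kinase at the kinetochore, was at 109.7 and 109 CPM without drug, 109 and 111 CPM at 6 h and 128 and 132 CPM at 48 h. Its untreated and 6 h libraries lay close together and both 48 h libraries were higher (log2 fold change 0.25). MAD2L1 (0.49), BUB1B (0.30) and BUB3 (0.26) were the others that rose, and TTK, the checkpoint kinase MPS1, had a log2 fold change of −0.09 that did not pass.

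At the centromere and kinetochore, 4 of 8 genes rose and 1 fell. HJURP, the chaperone that loads the centromeric histone CENP-A, went from 63.9 and 60.1 CPM to 126 and 123 CPM in GFP cells (log2 fold change 1.00). SPC24 (0.91), NDC80 (0.65) and CENPA (0.62) rose as well. CENPE, the kinesin that carries chromosomes to the spindle equator, fell from 68.1 and 67.5 CPM to 37.0 and 39.4 CPM with no overlap (log2 fold change −0.83, adjusted p = 5.93e-13).

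All 4 genes of the chromosomal passenger complex rose, with AURKB, its kinase, going from 62.2 and 54.7 CPM to 132 and 129.9 CPM (log2 fold change 1.17). All 4 genes of sister separation rose too, among them ESPL1, the separase that cuts cohesin (log2 fold change 0.89), its inhibitor PTTG1 (0.45) and UBE2C (0.60). CDC20, which activates the anaphase-promoting complex, was at 109.5 and 99.9 CPM, 127 and 112 CPM and 122 and 113 CPM. The treated libraries lay only a little above the untreated ones (log2 fold change 0.17 at 48 h), and the 6 h and 48 h ranges overlapped.

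Motors and spindle proteins were split. Of 7 kinesins, 4 rose, led by KIF23 of the central spindle (log2 fold change 0.87), and KIF14, which acts in cytokinesis, fell (−0.56). Of 7 spindle assembly proteins, CKAP2L (0.63) and TPX2 (0.18) rose, while ASPM, a protein of the spindle poles, fell from 105 and 98.6 CPM to 64.6 and 66.7 CPM (−0.63). The microtubule-binding proteins DLGAP5 (−0.17) and HMMR (−0.27) fell less, and the value of DLGAP5 turned its sign with total counts as the only scaling. With that scaling neither DLGAP5 nor HMMR passed the test. MKI67, the Ki-67 antigen that coats mitotic chromosomes, was at 205 and 196 CPM without drug, dropped to 133 and 129.6 CPM at 6 h and stood at 253 and 256 CPM at 48 h. It was thus lowest at 6 h and highest at 48 h with no overlap (log2 fold change −0.61 and 0.34).

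Treatment for 6 h with doxorubicin gave a different picture in GFP cells, with more falls than rises. Of the 50 genes, 6 rose and 24 fell, with a median log2 fold change of −0.20, against −0.04 over all genes, of which 48.0% were called, 22.2% upward and 25.8% downward. Treated libraries lay above the untreated ones for 11 genes and below for 30, against 31.6% and 39.1% of all genes. The rises were those of CDK1 (log2 fold change 0.50, adjusted p = 1.10e-09), MYBL2 (0.24), CDC20 (0.19), BUB3 (0.17), FOXM1 (0.17) and MAD2L1 (0.16). The largest falls that passed were those of ASPM (−0.63, adjusted p = 1.20e-10), MKI67, CENPF (−0.59), CDC25C (−0.57) and NDC80 (−0.54). PLK1 fell by 0.36 and CCNB1 by 0.22 on the log2 scale, whereas AURKA and BUB1 had values of −0.06 and 0.01 that did not pass.

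Between 6 and 48 h, 38 genes rose and 4 fell in GFP cells, against 32.0% and 30.2% of all genes (62.3% in either direction). The 48 h libraries lay above those at 6 h for 40 genes and below for 6, against 41.8% and 38.2% of all genes. The steepest rises in this interval were those of MYBL2 (log2 fold change 1.61), NDC80 (1.19), ESPL1 (1.19), CDC25C (1.12) and FOXM1 (1.08). The 4 falls were PLK1 (−0.55), CENPE (−0.31), KIF14 (−0.29) and AURKA (−0.19), and that of AURKA turned to 0.06 with total counts as the only scaling.

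**Figure D2:**
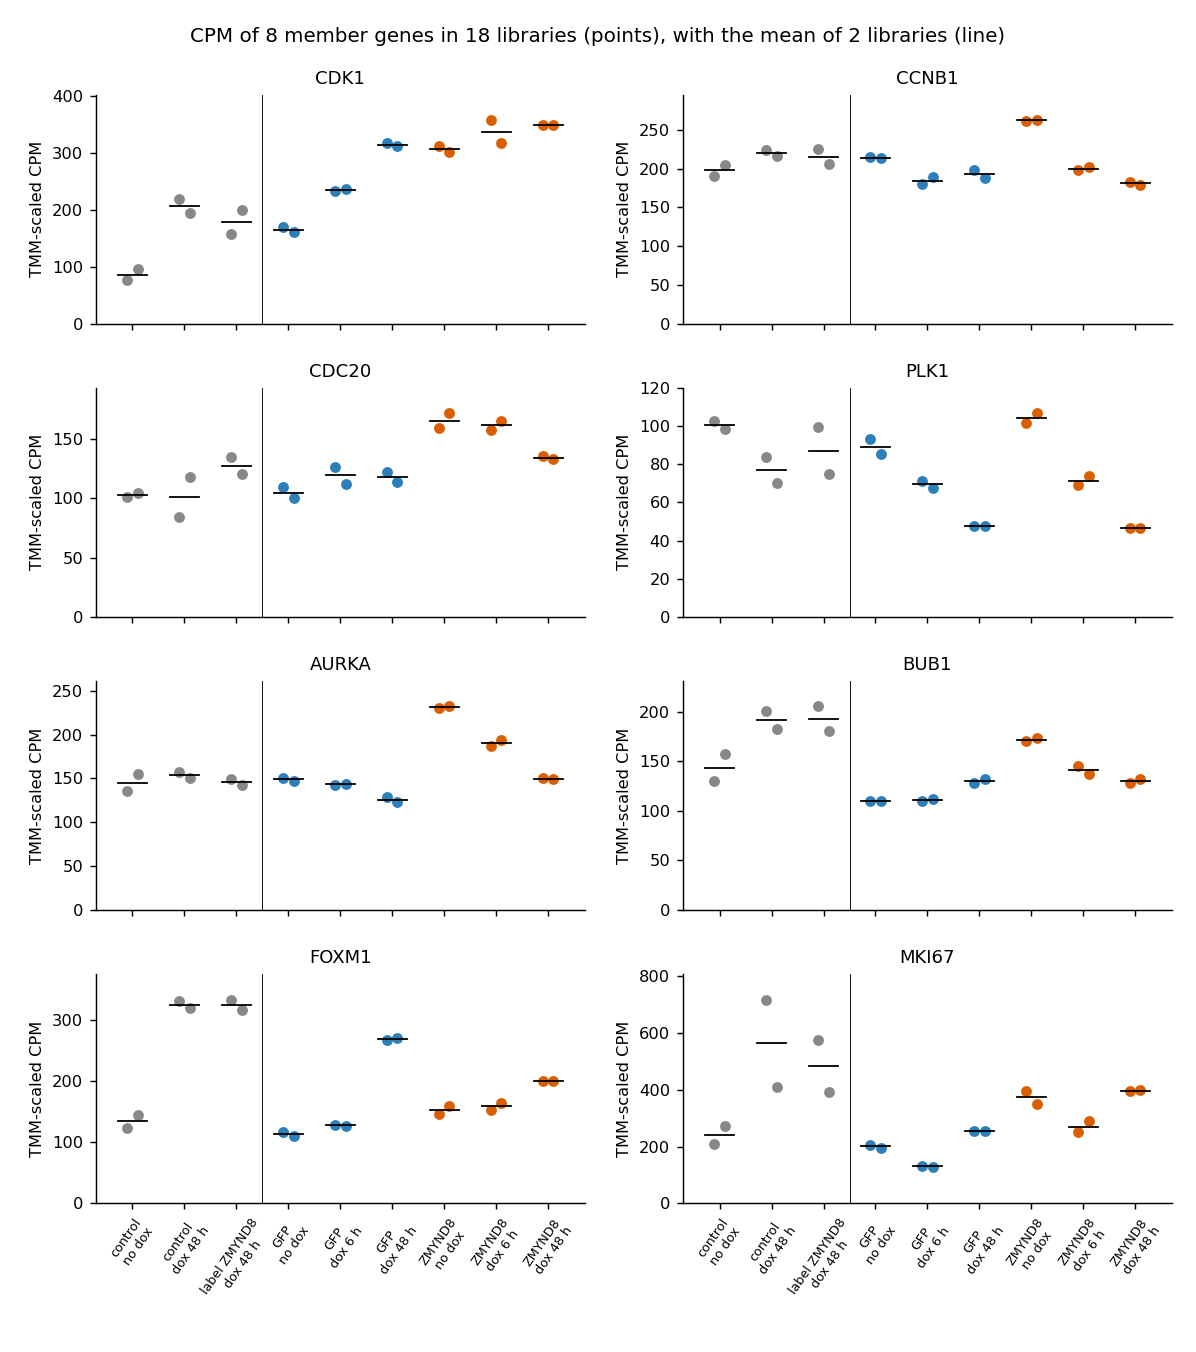
TMM-scaled CPM (linear axes from 0) of CDK1, CCNB1, CDC20, PLK1, AURKA, BUB1, FOXM1 and MKI67 in 18 libraries (points), with the mean of the 2 libraries of each of 9 conditions (lines) and the transient experiment left of the vertical rule. PLK1 steps down to 47.5 and 47.5 CPM in GFP cells and 46.4 and 46.7 CPM in ZMYND8 cells at 48 h, while FOXM1 climbs to 268 and 271 CPM in GFP cells and 200.2 and 199 CPM in ZMYND8 cells.

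The promoters of these genes were read from RefSeq (GRCh38.p14), from 250 bases before to 50 bases after each annotated start, for 43 of the 50 genes. AURKA, TTK, FOXM1, BIRC5, TPX2, BUB3 and UBE2C had no entry. The cell cycle homology region (CHR), at which MuvB complexes bind, was searched as TTTGAA or TTCGAA on both strands, and the CCAAT box as CCAAT on both strands. A CHR match was found in 33 of 43 genes (76.7%) against 19.5% of 27305 genes, and a CCAAT match in 36 (83.7%) against 39.7%. Both matches in the same promoter were found in 29 genes (67.4%) against 7.85% of all. Over 41 genes of G1/S and DNA replication, 37 had a promoter, of which 2 held a CHR match and 22 a CCAAT match. E2F sites, searched as TTCGCGC or TTGGCGC on both strands, were found in 7 of the 43 genes (16.3%), in 6.10% of all genes and in 18 of the 37 G1/S genes. A match to TTGGCGC can share bases with a CCAAT box read on the other strand (ATTGG), and both are then counted.

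These 6 promoter stretches are shown as examples, chosen after their values were seen, of genes that fell and of genes that rose in GFP cells, with CHR and CCAAT matches in capitals, each from 130 bases before the start and ending before any annotated UTR base. PLK1 (chr16:23678759-23678868, plus strand), ASPM (chr1:197146695-197146799, minus) and KIF14 (chr1:200620752-200620881, minus) fell after 48 h in GFP cells. ESPL1 (chr12:53268169-53268298, plus), KIF11 (chr10:92593000-92593129, plus) and CCNB2 (chr15:59105016-59105145, plus) rose.
PLK1: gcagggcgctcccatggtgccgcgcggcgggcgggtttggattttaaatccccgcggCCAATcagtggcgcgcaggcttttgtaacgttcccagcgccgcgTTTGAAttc
ASPM: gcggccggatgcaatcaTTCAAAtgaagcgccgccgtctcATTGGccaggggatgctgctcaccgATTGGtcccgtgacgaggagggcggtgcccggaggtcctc
KIF14: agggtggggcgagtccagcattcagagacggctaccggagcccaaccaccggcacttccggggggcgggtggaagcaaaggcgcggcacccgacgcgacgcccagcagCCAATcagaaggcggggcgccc
ESPL1: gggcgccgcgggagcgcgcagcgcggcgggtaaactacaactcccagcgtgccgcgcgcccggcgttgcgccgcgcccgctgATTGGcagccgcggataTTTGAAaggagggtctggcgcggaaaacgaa
KIF11: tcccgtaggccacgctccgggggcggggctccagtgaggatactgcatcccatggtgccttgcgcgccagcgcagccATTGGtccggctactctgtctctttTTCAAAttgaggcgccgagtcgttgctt
CCNB2: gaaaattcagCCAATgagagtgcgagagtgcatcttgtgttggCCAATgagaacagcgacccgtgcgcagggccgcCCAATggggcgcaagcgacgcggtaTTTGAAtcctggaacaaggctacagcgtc
In PLK1, ESPL1, KIF11 and CCNB2 the CHR match began at −29, −31, −28 and −29 from the start, downstream of the last CCAAT match at −73, −48, −53 and −54. ASPM held CCAAT matches on both sides of its CHR match, which began at −113, with 1 at −134 and others at −90, −65 and −25. Of these the stretch shows those at −90 and −65. KIF14 held a CCAAT match at −22, and its CHR match lay beyond the stretch shown, at base 2 with the start itself counted as base 1.

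Over the 37 genes with a single promoter, 39 CHR matches lay at a median of −26 from the start and 67 CCAAT matches at a median of −75. Genes with a CHR match had a median log2 fold change of 0.34 after 48 h in GFP cells (n = 33, 21 rose and 5 fell), and those with a promoter but no match had 0.69 (n = 10, 7 rose and 2 fell). Genes that rose and genes that fell were thus found on both sides, and a match is a description of the letters and not of binding.

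**Figure D3:**
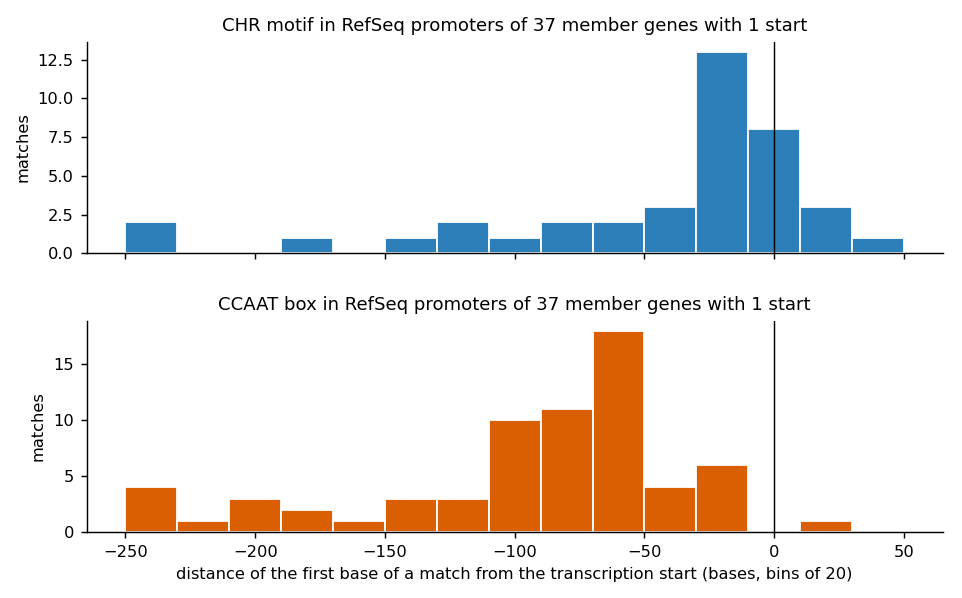
Distance of the first base of each CHR match (upper panel) and CCAAT match (lower panel) from the RefSeq transcription start, in bases, as counts of matches in bins of 20 bases over the 37 genes with 1 promoter. Of the CHR matches 25 of 39 lie between −40 and 20, and of the CCAAT matches 41 of 67 lie between −110 and −40.

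ZMYND8 cells held more of these transcripts than GFP cells before any doxorubicin. Of the 50 genes 39 were higher and 3 lower, with a median log2 difference of 0.41, against 0.00 over all genes, of which 58.3% were called, 28.7% higher and 29.5% lower. Both ZMYND8 libraries lay above both GFP libraries for 42 genes and below for 4, against 38.0% and 38.7% of all genes. The largest differences were those of HJURP (152 and 150.3 against 63.9 and 60.1 CPM, log2 difference 1.28), KIF23 (1.12), the chromokinesin KIF4A (1.09), the kinetochore protein CENPF (1.02) and CDK1 (0.89). SPC24 (−0.33), MYBL2 (−0.27) and DLGAP5 (−0.10, adjusted p = 0.0437) were lower. AURKA stood at 229.9 and 232 CPM in ZMYND8 cells, above every one of its GFP libraries. The 7 markers of other cell types summed to 62.0 and 59.9 CPM in these untreated GFP libraries, with CD68 at 0 in the second, and to 23.6 and 22.1 CPM in the untreated ZMYND8 libraries. All but CD68 had a lower mean in ZMYND8 cells, and the epithelial marker EPCAM, at 37.4 and 37.0 CPM against 11.5 and 10.2 CPM, made up the most of it. Mitochondrial genes took 0.893% and 0.947% of the counts in untreated GFP cells and 1.29% and 1.96% in untreated ZMYND8 cells. The part of these in the result was not tested.

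Doxorubicin for 6 h lowered most of the genes in ZMYND8 cells. In this comparison 2 rose and 34 fell, with a median log2 fold change of −0.32, against 21.8% and 19.0% of all genes (40.8% in either direction). Treated levels lay above untreated ones for 2 genes and below for 39, against 32.3% and 33.3% of all genes. The 2 rises were small, CDK1 at 0.14 and MYBL2 at 0.14 (adjusted p = 0.0487). ASPM fell the most (−1.02, adjusted p = 6.70e-15), followed by the kinesin KIF20A (−0.84), CDC25C (−0.77), NDC80 (−0.75) and KIF14 (−0.73). PLK1 (−0.54), MKI67 (−0.46), CCNB1 (−0.39), BUB1 (−0.28) and AURKA (−0.28) fell, and FOXM1 (0.06) and CDC20 (−0.04) did not pass the test.

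After 48 h in ZMYND8 cells, 11 genes rose and 25 fell, with a median log2 fold change of −0.15, against 0.05 over all genes, of which 62.3% were called, 31.6% upward and 30.8% downward. By the libraries, treated levels were above untreated ones for 13 genes and below for 30, against 42.2% and 38.1% of all genes. The split depended on the scaling. With total counts alone the median of all genes moved by 0.21, 20 genes rose and 19 fell, and the falls of KIF11 and ECT2 turned their sign without passing the test. The strongly expressed genes of the line summed to 6897 and 7367 CPM without drug and to 4740 and 4572 CPM after 48 h, and the mitochondrial share was 1.29% and 1.96% against 3.01% and 2.73%. The part of these in the result was not tested.

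Among the rises, MYBL2 was at 79.3 and 83.8 CPM without drug, 82.7 and 97.5 CPM at 6 h and 176 and 173 CPM at 48 h. Its 48 h libraries were clearly apart from the rest, with a 2.14-fold increase (log2 fold change 1.10, SE 0.053, adjusted p = 6.64e-16). FOXM1 went from 146 and 159 CPM to 200.2 and 199 CPM (0.39), and AURKB (0.51), ESPL1 (0.49) and the sparsely counted SPC25 (0.73) also rose. CDK1 was at 312 and 302 CPM, 358 and 317 CPM and 350.4 and 349 CPM without drug, at 6 h and at 48 h. Its untreated level was already near that of GFP cells at 48 h, and its log2 fold change at 48 h was 0.19.

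Falls in ZMYND8 cells were led by PLK1, ASPM, CENPE, KIF14 and the cytokinesis scaffold ANLN. PLK1 was at 101 and 107 CPM, 69.3 and 73.6 CPM and 46.4 and 46.7 CPM, ending at nearly the same level as in GFP cells (2.24-fold lower, log2 fold change −1.16, adjusted p = 2.38e-16). ASPM went from 160.0 and 148 CPM to 74.9 and 76.2 CPM (−1.02), CENPE from 92.6 and 90.5 CPM to 44.4 and 45.6 CPM (−1.02) and ANLN from 579.8 and 574 CPM to 311 and 318 CPM (−0.87). The treated libraries of all 4 genes lay below the untreated ones.

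AURKA in ZMYND8 cells was at 229.9 and 232 CPM, 187 and 193 CPM and 150.5 and 149 CPM, and stepped down at each time (log2 fold change −0.63 at 48 h). CCNB1 was at 262 and 262 CPM, 198 and 202 CPM and 183 and 179 CPM, with the same order (−0.54). BUB1 was at 170.1 and 173 CPM, 145 and 137 CPM and 128 and 132 CPM (−0.40), and its 48 h libraries overlapped those of GFP cells at 48 h. CDC20 was at 159 and 172 CPM, 157 and 165 CPM and 135 and 133 CPM, lower only at 48 h (−0.30). With total counts as the only scaling, the falls of CCNB1, BUB1 and CDC20 from 6 to 48 h turned their sign. MKI67 was at 394 and 352 CPM, 251 and 289 CPM and 395 and 398 CPM, dipping at 6 h, and its 48 h value of 0.09 did not pass the test.

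By role, ZMYND8 cells at 48 h had 5 of 7 kinesins lower and none higher (4 and 2 with total counts alone), 4 of 10 entry genes lower and 1 higher (3 and 4 with total counts alone), and both transcription factors higher with either scaling. The centromere and kinetochore genes were 2 higher and 4 lower of 8, the checkpoint genes 2 and 3 of 5, the passenger complex 2 and 2 of 4, and both cytokinesis genes fell; with total counts alone these were 3 and 3, 2 and 3, 2 and 1, and 1 fall. Of the spindle assembly proteins, 4 of 7 fell and 1 rose with either scaling. Between 6 and 48 h in this line 20 genes rose and 13 fell, against 30.2% and 31.3% of all genes (61.5% in either direction). Levels at 48 h lay above those at 6 h for 25 genes and below for 16, against 41.1% and 38.4% of all genes. MYBL2 (0.95) and ESPL1 (0.74) led the rises, and PLK1 (−0.62) and CENPE (−0.46) the falls. With total counts alone the median of all genes moved by 0.29 and this split became 38 and 3, so its direction rests on the scaling. The shares of all genes given here for this interval are those of the TMM scaling. The falls of 6 genes turned their sign (CCNB1, BUB1, CDC20, KIF18A, KIF14 and TPX2), and 3 of them passed the test as rises.

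The test of the difference between the lines, the interaction of ZMYND8 with 48 h of doxorubicin, was negative for nearly all of the genes. Of the 50, 44 had a lower change in ZMYND8 than in GFP cells and 0 a higher one (edgeR adjusted p at most 0.05), with a median log2 difference of −0.58, against −0.01 over all genes, of which 28.6% were called, 12.7% higher and 15.8% lower. With total counts alone it was 45. The 6 genes that did not pass were BUB3, SPC25, CENPE, NUSAP1, HMMR and PRC1. This interaction holds the untreated libraries of both lines, and 39 of the genes were called higher in untreated ZMYND8 than in untreated GFP cells, as given above.

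KIF23 had the largest interaction, going from 82.4 and 80.3 CPM to 149.6 and 147 CPM in GFP cells and from 174 and 179.9 CPM to 169.6 and 162 CPM in ZMYND8 cells. Its GFP libraries after 48 h were still below all 4 of these ZMYND8 libraries, and the interaction was −0.96 on the log2 scale (SE 0.064, adjusted p = 9.54e-12). FOXM1 (−0.86, adjusted p = 8.12e-11), NDC80 (−0.89), SPC24 (−0.86) and HJURP (−0.83) followed. All 10 entry genes passed, among them CDK1 (−0.74), CCNB1 (−0.38), AURKA (−0.38) and PLK1 (−0.25). BUB1 (−0.65), CDC20 (−0.47), MYBL2 (−0.76) and MKI67 (−0.25) were negative as well. All 7 kinesins, all 4 passenger genes and all 4 genes of sister separation passed, and 29 of 33 genes with a CHR match and 9 of 10 without.

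**Figure D4:**
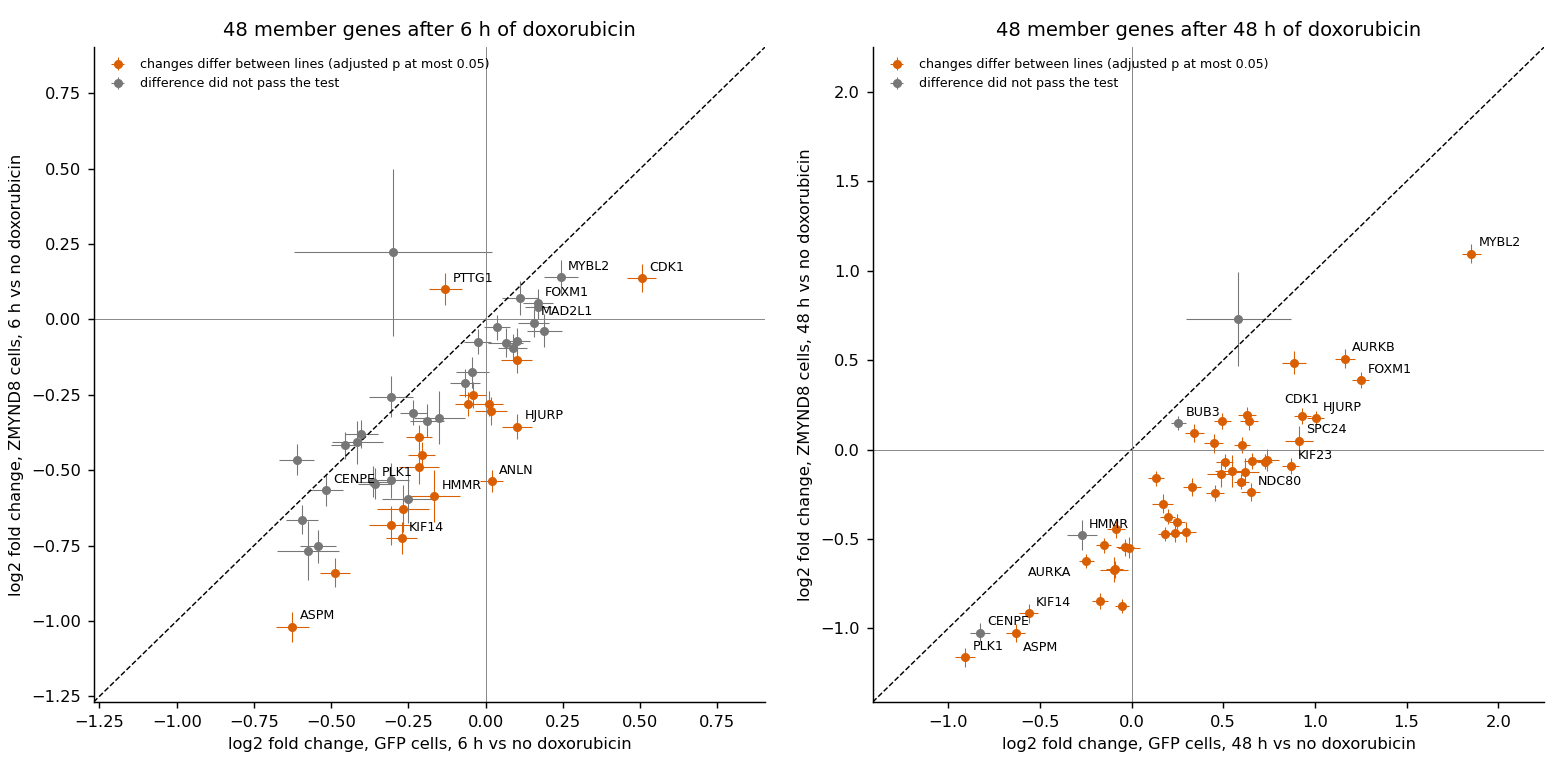
Log2 fold change against no doxorubicin in GFP cells (x axis) and ZMYND8 cells (y axis) for 48 genes after 6 h (left) and 48 h (right), with bars of 1 SE and the line of equal change dashed. Genes whose changes differed between the lines are orange; after 48 h only SPC25, in grey, lies above the line.

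The GFP and ZMYND8 comparisons at 48 h hold no library in common, and their calls can be set side by side. A total of 10 genes rose in both lines, against 22.8% of the 18799 genes tested, AURKB, BUB3, CDK1, CKAP2L, ESPL1, FOXM1, HJURP, INCENP, MAD2L1 and MYBL2. Another 8 fell in both, against 23.8% of all genes, ASPM, AURKA, CCNB1, CENPE, DLGAP5, HMMR, KIF14 and PLK1. For 11 genes the direction was opposite, up in GFP and down in ZMYND8 cells, against 1.62% of all genes: BIRC5, BUB1, BUB1B, CCNB2, CDC20, CDCA8, ECT2, KIF11, KIF4A, NDC80 and TPX2. A further 12 rose in GFP cells and did not pass in ZMYND8 cells, against 8.03% of all genes. These groups depended on the scaling. With total counts alone 20 rose in both lines, against 34.1% of all genes. In both lines 4 fell, against 14.8% of all genes, ASPM, CENPE, KIF14 and PLK1. CCNB1 then rose in GFP cells, and AURKA, DLGAP5 and HMMR did not pass there. The direction was then opposite for 11 genes, against 1.63% of all genes, with BIRC5, BUB1, BUB1B, KIF4A and TPX2 from the list above and ANLN, CCNB1, CENPF, KIF20A, NUF2 and TTK besides. CCNB2, CDC20, CDCA8, ECT2, KIF11 and NDC80 no longer passed in ZMYND8 cells.

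At 6 h the interaction passed for 18 genes, 17 negative and 1 positive, with a median of −0.17. Of all genes, 5.52% passed as negative and 7.86% as positive (13.4% in either direction). ANLN (−0.55), HJURP (−0.46), KIF14 (−0.45), HMMR (−0.42) and ASPM (−0.39) were the most negative, and PTTG1, the securin that restrains separase, was the positive gene (0.23, adjusted p = 0.0387). CDK1 (−0.37), BUB1 (−0.29), AURKA (−0.22) and CCNB1 (−0.17) were negative and passed. The count was 31 with total counts as the only scaling.

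Compared directly at the same time, ZMYND8 cells were above GFP cells at 6 h, with 32 genes higher and 5 lower, against 29.0% and 26.6% of all genes (55.5% in either direction). The libraries of ZMYND8 cells lay above for 35 genes and below for 6, against 38.1% and 36.0% of all genes. MKI67 (1.04), KIF4A (0.95) and CENPF (0.95) were among the highest, and KIF14 (−0.55) and SPC24 (−0.51) the lowest. At 48 h 15 genes were higher and 22 lower, with a median of −0.08, against 28.4% and 31.6% of all genes (60.0% in either direction). The number that were higher was near the share over all genes. By the libraries, ZMYND8 cells were then above for 20 genes and below for 25, against 38.2% and 42.1% of all genes. MKI67 (0.64), BUB3 (0.64) and CENPF (0.51) were then higher in ZMYND8 cells, whereas SPC24 (−1.20), MYBL2 (−1.03), DLGAP5 (−0.78), KIF11 (−0.65) and NDC80 (−0.63) were lower.

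In the transient experiment, doxorubicin for 48 h raised 15 of the 50 genes and lowered 0, with a median log2 fold change of 0.65, against 0.00 over 15697 genes tested, of which 5.13% were called, 2.98% upward and 2.15% downward. With the replicate number as a block, 26 were called. Total counts as the only scaling moved the median of all genes by 0.15, or by 0.14 for the libraries labelled FLAG-ZMYND8, and turned the direction of no called gene. The mitochondrial share was 7.37% and 3.79% in the control libraries and 6.76% and 4.34% with doxorubicin, and the strongly expressed genes of the line summed to 7084 and 5653 CPM and to 4946 and 4045 CPM. The part of these was not tested. By the libraries alone, treated levels lay above control levels for 42 genes and below for 1, against 25.6% and 24.8% of all genes. Leaving out the first control library, the first or the second doxorubicin library left 7 calls in each case. Counts of this table did not separate the strands, since genes antisense to expressed genes had a median read density of 1.59 to 1.75 times that of their partner, against 0.0774 to 0.103 in the inducible table. Of the members 9 share over 5% of their exon bases with genes of the other strand, among them FOXM1 (15.9%) and PLK1 (12.8%).

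MYBL2 was at 35.5 and 23.7 CPM in the transient control libraries and 155 and 125 CPM with doxorubicin. Both treated libraries were well above both controls (4.74-fold, log2 fold change 2.25, SE 0.261, edgeR adjusted p = 0.00461). FOXM1 went from 124 and 145 CPM to 331 and 319 CPM (1.27, adjusted p = 0.00875), and CDK1 from 76.5 and 95.5 CPM to 219 and 195 CPM (1.27, adjusted p = 0.0106). Neither gene overlapped between the groups. MKI67 went from 210.1 and 273 CPM to 717 and 409 CPM, with a wide gap between the treated libraries (1.22, adjusted p = 0.0416).

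Other rises were those of the spindle protein CKAP2L (1.44) and ESPL1 (1.34). PLK1 was at 103 and 98.3 CPM without and 83.7 and 70.1 CPM with doxorubicin, lower in both treated libraries but short of the threshold (−0.39, adjusted p = 0.306). CCNB1 went from 191 and 205 CPM to 223 and 216 CPM (0.15) and did not pass. AURKA went from 135 and 155 CPM to 158 and 151 CPM, with overlapping groups (0.09). BUB1 went from 129.9 and 157 CPM to 200.2 and 182 CPM, higher with the drug in each library though not past the test (0.41, adjusted p = 0.253). CDC20 went from 101 and 104 CPM to 83.9 and 118 CPM, again with overlap (−0.02).

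The libraries labelled FLAG-ZMYND8 with doxorubicin were compared with the same 2 control libraries, so their result shares its baseline with the one above. Here 14 genes rose and 0 fell, with a median log2 fold change of 0.59, against 3.85% and 2.97% of all genes (6.82% in either direction), and 25 were called with the replicate block. Levels in these libraries lay above those of control for 41 genes and below for 0, against 27.0% and 25.0% of all genes. Without the second library of that label 7 were called, without the first library of the label 4, and without the first control 7. MYBL2 (2.34, adjusted p = 0.00393), ESPL1 (1.33), CKAP2L (1.29), FOXM1 (1.27) and AURKB (1.21) led. MYBL2 was at 173 and 126 CPM and FOXM1 at 333 and 317 CPM in these libraries, next to the doxorubicin levels given above. MKI67 was at 576 and 392 CPM, CDK1 at 158 and 199.8 CPM, and PLK1 at 99.3 and 74.7 CPM. CCNB1 was at 225 and 206 CPM, AURKA at 149.8 and 143 CPM, BUB1 at 205 and 181 CPM and CDC20 at 135 and 120.5 CPM, and of these 4 genes only CDC20 had both libraries above those of doxorubicin alone.

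Directly against doxorubicin alone, 0 of the 50 genes and 0% of all genes passed edgeR's test. At an unadjusted p of at most 0.05 there were 0 members and 54 of 15697 genes (0.344%), and DESeq2 called 0 members and 0 genes. The groups overlapped for 36 of the 50 genes, and the labelled libraries lay above for 5 genes and below for 9, against 11.7% and 11.4% of all genes. With ZMYND8 no higher under that label and the second libraries of both groups nearly alike, this comparison is one of the libraries as labelled. For a single gene, the smallest two-sided p of an exact permutation test with 2 libraries in each group is 0.333.

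The log2 fold change after 48 h, taken with its sign, was higher in transient control than in GFP cells for 8 genes and lower for 0. The median difference was 0.32, against 0.05 over 21571 genes, of which 6.17% were called, 4.37% higher and 1.80% lower. ASPM (1.14, adjusted p = 0.0152), KIF14 (1.02), CENPE (0.95), CKAP2L (0.82) and TTK (0.78) had the largest differences, and the others were NUF2, a subunit of the NDC80 complex, and the kinesins KIF18A and KIF4A. ASPM, KIF14 and CENPE fell in GFP cells (−0.63, −0.56 and −0.83), and their values in transient control cells (0.52, 0.47 and 0.13) did not pass the test. CENPE was at 64.3 and 79.0 CPM in transient control cells and 93.1 and 64.2 CPM with doxorubicin, with overlapping libraries, against the fall in GFP cells. The count was 0 without the second untreated GFP library or without either 48 h GFP library, 3 without the first untreated GFP library, 5 without the first transient control, 23 without the second transient control and 15 without the second transient doxorubicin library. Total counts alone moved the median of all genes by −0.11 and gave 4 genes. The 2 experiments were separate tables that differ in construct, doxycycline, depth and strand separation, and these cannot be told apart.

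**Figure D5:**
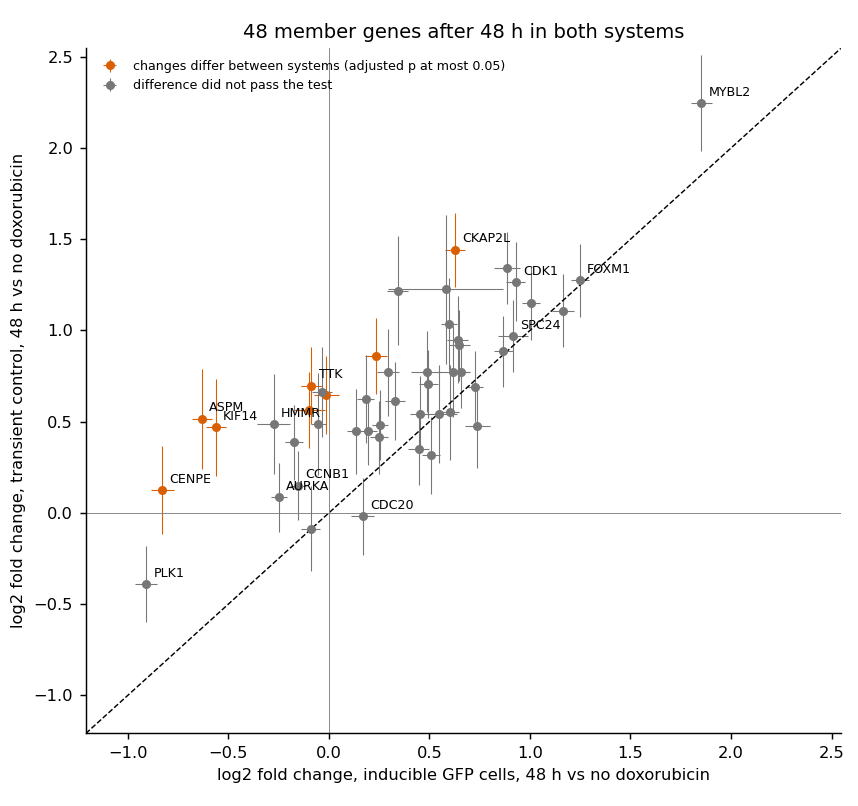
Log2 fold change after 48 h of doxorubicin in inducible GFP cells (x axis) and in transient control cells (y axis) for 48 genes, with bars of 1 SE and the line of equal change dashed. The 8 genes whose changes differed between the experiments are orange, all above the line, and MYBL2 is at the upper right in both, at 1.85 and 2.25.

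Further genes of mitosis, a list of 81 that holds none of the 50, were also counted. After 48 h in GFP cells 61 of 80 tested rose and 8 fell, against 32.4% and 31.8% of all genes. The median log2 fold change was 0.57, led by CDCA5, the cohesin protector sororin (1.81), and the CDK1-inhibiting kinase PKMYT1 (1.77). In ZMYND8 cells 36 rose and 22 fell at 48 h, against 31.6% and 30.8% of all genes on the TMM scale (49 and 15 with total counts alone). PSRC1, a spindle protein that binds microtubules, fell the most (−1.31). The interaction at 48 h was negative for 63 and positive for 0, against 15.8% and 12.7% of all genes. KNTC1, a checkpoint protein of the kinetochore (−1.17), and NCAPH, a subunit of condensin (−0.99), led. In transient control cells 33 of 79 rose and 0 fell, against 2.98% and 2.15% of all genes, among them the histone H3 kinase gene HASPIN (1.69).

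Genes of G1/S and DNA replication, a list of 41, rose in nearly all cases after doxorubicin. In GFP cells 37 rose and 0 fell after 6 h, and 40 rose and 0 fell after 48 h, with median log2 fold changes of 0.58 and 1.24. Of all genes, 22.2% rose and 25.8% fell there after 6 h, and 32.4% and 31.8% after 48 h. In ZMYND8 cells 32 rose and 1 fell after 6 h, and 36 rose and 3 fell after 48 h, with medians of 0.46 and 0.64. Of all genes, 21.8% rose and 19.0% fell there after 6 h, and 31.6% and 30.8% after 48 h. In transient control cells 36 rose and 0 fell, against 2.98% and 2.15% of all genes, with a median of 1.30. Beside these, the 50 mitosis and G2/M genes had medians of −0.20 and 0.39 in GFP cells, −0.32 and −0.15 in ZMYND8 cells and 0.65 in transient control cells. The interaction at 48 h was negative for 35 of the 41 genes, against 15.8% of all genes, with a median of −0.64. No test was run of one list against the other.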

How the data were processed

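Poly(A) RNA was sequenced from 18 MDA-MB-231 libraries in 9 conditions, which were grouped by the sample labels with 2 libraries each. The study describes those of the inducible experiment as biological replicates, and nothing says so for the transient ones. The authors deposited unnormalized counts, 1 table for each experiment. Per the file headers, read pairs over exons were summed for each gene by featureCounts 1.6.4 (GENCODE release 31, hg38) in reverse-stranded mode, and those mapping to several places or overlapping several genes were not assigned. The paper's methods name TopHat and cuffdiff, whereas the submitters' processing notes list Trim Galore, HISAT2 and DESeq2, so the aligner behind the counts is uncertain. Every column matched a sample, and 45 copies of Y-chromosomal pseudoautosomal genes were left out.

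Counts of each experiment were scaled with TMM factors, filtered with edgeR's filter by expression and fitted with 1 mean per condition in edgeR 4.0.16 (R 4.3.3, quasi-likelihood test, Benjamini-Hochberg adjustment over all genes tested, threshold 0.05). The difference between the experiments was fitted on both tables together. FPKM were computed from the scaled CPM and exon lengths. The scripts were tested on simulated counts. Alternatives were DESeq2 1.42.0 and its size factors, total counts as the only scaling, no filter on low counts, the study's threshold (an unadjusted p up to 0.05 and a log2 change from 1, or 1.5 in the inducible table), the replicate number as a block, and leaving out libraries. In the transient table, libraries with the same number deviated together (correlation 0.208 to 0.404 over 3 pairs of conditions), so the blocked counts stand beside the results. Strand separation was checked on 342 pairs, each an antisense gene lying for 90% or more inside the exons of a partner with 20 CPM or more.

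The 50 genes, the other gene lists and the rule for naming genes were chosen with earlier results of these data known. Values in every library are given for CCNB1, CDK1, PLK1, CDC20, AURKA, BUB1, FOXM1 and MKI67 and for members that lead a comparison. For each comparison up to 5 members with the largest rises and falls among those called were named, and up to 2 of the other mitosis genes. Promoters came from RefSeq. With 2 libraries per condition, p-values weigh a difference against the spread between libraries of the same condition. This spread was pooled over all conditions of a fit and partly shared between genes. In the transient experiment it may be technical.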

Additional observations from a re-analysis of the deposited data

Results flagged for a closer look

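The change upon doxorubicin differed between ZMYND8 and GFP cells, by edgeR's test of the interaction, for 18 of the 50 genes at 6 h and for 44 at 48 h. Over all genes, 13.4% were called at 6 h and 28.6% at 48 h. At 6 h the named differences in log2 fold change were 0.23 for PTTG1, −0.55 for ANLN, −0.46 for HJURP, −0.45 for KIF14, −0.42 for HMMR and −0.39 for ASPM. At 48 h they were −0.96 for KIF23, −0.89 for NDC80, −0.86 for SPC24, −0.86 for FOXM1 and −0.83 for HJURP. Both of these effects are measured from the untreated libraries. There 39 of the genes were called higher in ZMYND8 than in GFP cells, against 28.7% of all genes. The part of this in the interaction was not tested.

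The change after 48 h differed between transient control and GFP cells for 8 genes, against 6.17% of all genes. The named differences were 1.14 for ASPM, 1.02 for KIF14, 0.95 for CENPE, 0.82 for CKAP2L and 0.78 for TTK. In each the log2 fold change, taken with its sign, was higher in transient cells. ASPM, KIF14 and CENPE fell in GFP cells and did not pass the test in transient control cells. No group held enough libraries for a check of single libraries against their group.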

How the results depend on the processing

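Counts of called members were within 1.5 times of the main value under every alternative except those given here. A replicate block gave 26 calls in transient control cells in place of 15, and 25 with the FLAG-ZMYND8 label in place of 14; in the inducible table, where same-numbered libraries did not deviate together (correlation −0.05 to 0.02 over 15 pairs of conditions), and in the difference between experiments, the block moved no count past that limit. The study's threshold left 1 gene in GFP cells at 48 h against none and against 6 h, and 0 in each of the other inducible comparisons and both interactions. With the inducible cutoff of 1.5 it left 0 in the difference between experiments, where ASPM and KIF14 exceeded 1. With total counts as the only scaling, the interaction at 6 h called 31 genes in place of 18, and the difference between experiments 4 in place of 8; without a filter on low counts the latter was 16. Leaving out both second doxorubicin libraries gave 7 genes in transient control cells, 9 with the label and 17 for the difference between experiments. Leaving out 1 library at a time gave 7 to 13 genes in transient control cells, 4 to 11 with the label, 12 to 19 for the interaction at 6 h, 0 to 23 for the difference between experiments, 39 to 43 in GFP cells at 48 h, 35 to 37 in ZMYND8 cells at 48 h and 42 to 45 for the interaction at 48 h. The cause was not tested.

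Of 1522 alternative values of named genes, 1415 kept direction and call, 83 lost the call, 13 gained it and 11 reversed, 4 with total counts and 7 without 1 library. With total counts these were CDC20 in transient control cells (0.13), CCNB1 in GFP cells at 48 h (0.094), AURKA in GFP cells from 6 to 48 h (0.056) and FOXM1 in ZMYND8 cells at 6 h (−0.028). Without 1 library at a time, the values of the genes that reversed ranged from −0.010 to 0.19 for AURKA and −0.29 to 0.19 for CDC20 in transient control cells, from −0.092 to 0.024 for CDC20 and −0.0064 to 0.12 for FOXM1 in ZMYND8 cells at 6 h, and from −0.0019 to 0.15 for MKI67 in ZMYND8 cells at 48 h. SPC25, PRC1 and NUSAP1 had few counts, which limits the precision of their values.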
